A study of Mus musculus with 14 samples.

Results

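Glycolysis enzymes were followed through 10 genes, chosen by name: Hk1, Hk2, Gpi1, Pfkp, Pfkl, Aldoa, Pgk1, Eno1, Ldha and Pdk1. Every non-control probe of the SurePrint G3 Mouse array whose gene name equalled a member was taken, which gave 17 probes of 55681 and 10 gene names of 36161. Total RNA was hybridised in a single colour in 5 groups. Healthy small intestine (3 arrays) and colon (3 arrays) carry the strain label C57BL/6J and were tissue samples. For its methylation samples the paper names the mucosa of these organs. Adenomas (3 arrays) and non-tumor tissue adjacent to adenomas (2 arrays) came from APCmin/+ mice, which carry a germline truncating mutation in 1 copy of Apc and form adenomas mainly in the small intestine. CT26 (3 arrays) is a mouse colon carcinoma cell line from the ATCC, grown as a culture of tumor cells alone. All mice were on the C57BL/6J background, no treatment is labelled, and wild-type animals were adults.

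Several features of the groups bear on every comparison. The sample list of the study places the 3 adenomas and both adjacent pieces in a single APCmin/+ mouse, so p-values for these groups measure the spread between pieces of 1 animal. It also places 1 colon sample under an APCmin/+ mouse, whereas the label of every colon array reads C57BL/6J. CT26 is set against colon tissue, and the sample list gives BALB/c as its strain. Strain, cell line against tissue, and tumor against normal therefore cannot be told apart. Comparisons share arrays: those of every group, adjacent tissue included, serve in more than 1 of them. In tissue samples, fewer cells of a type and less RNA per cell cannot be told apart.

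Colon replicate 3 did not follow the other colon arrays. Its median over 10 enterocyte markers of the small intestine was 5.79, against -2.71 and -3.23 in colon replicates 1 and 2, and its median over 6 colonocyte markers was -0.44, against 6.01 and 5.36. Its values correlated with those of the small intestine arrays at r = 0.9506 to 0.9687 over 20833 probes, and with the other colon arrays at 0.9344 and 0.9383. Colon results of the members that were called, and the calls of the gene lists, are therefore given with and without it. CT26 lacked many epithelial markers: Epcam, Cdh1, Krt19 and Vil1 were not well above background on any of its 3 arrays, while Krt18 and Krt20 were.

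Glycolysis turns glucose into pyruvate through a fixed series of cytosolic enzymes and yields ATP without oxygen. Hexokinases trap glucose in the cell, phosphofructokinase sets much of the pace, and lactate dehydrogenase can divert pyruvate to lactate while pyruvate dehydrogenase kinases hold it back from the mitochondria. Many of these genes are known targets of the hypoxia factor HIF1 and of Myc, and proliferating tumors often show high glucose uptake with lactate release. In the small intestine, absorptive enterocytes take up dietary sugars and also carry enzymes of fructose breakdown and glucose synthesis.

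Values are log2 processed signals after subtraction of the 75th percentile of the array, so 0 is the level of that percentile. Each gene was read from its brightest probe over all arrays, and levels were compared between groups for the same probe, never between probes. All 17 probes were well above background on all 14 arrays and none was saturated. A gene was called in limma when the log2 fold change was 1.2 or more in size and the p-value, adjusted over all probes tested by the Benjamini-Hochberg method, did not exceed 0.01. Both thresholds are those of the published methods.

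The promoters of 4 members are shown because these genes gave the contrasting patterns described further on: Hk2 was higher in adenomas, Pgk1 was higher in CT26, Pfkp was lower in both, and Ldha was called in no comparison. Capitals mark ACGTG on either strand, the core letters of the hypoxia response element, which also lie inside the E-box CACGTG. Sequences are from RefSeq on GRCm38.p6 and give the 250 bases before the start site, 5′ to 3′ on the strand of the gene. Hk2 lies on the minus strand at chr6:82774455-82774704, Pgk1 on the plus strand at chrX:106186850-106187099, Ldha on the plus strand at chr7:46845554-46845803 and Pfkp on the minus strand at chr13:6648772-6649021.
Hk2: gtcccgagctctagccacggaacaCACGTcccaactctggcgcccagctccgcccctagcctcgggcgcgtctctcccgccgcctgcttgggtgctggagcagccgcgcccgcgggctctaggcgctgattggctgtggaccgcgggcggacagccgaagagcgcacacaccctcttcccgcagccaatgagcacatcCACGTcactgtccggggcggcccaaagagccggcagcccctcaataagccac
Pgk1: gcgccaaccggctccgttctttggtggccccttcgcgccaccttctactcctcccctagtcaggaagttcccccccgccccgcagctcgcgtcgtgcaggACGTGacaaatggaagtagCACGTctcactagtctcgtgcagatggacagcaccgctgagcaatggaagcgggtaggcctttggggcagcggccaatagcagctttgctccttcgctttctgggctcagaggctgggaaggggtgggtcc
Ldha: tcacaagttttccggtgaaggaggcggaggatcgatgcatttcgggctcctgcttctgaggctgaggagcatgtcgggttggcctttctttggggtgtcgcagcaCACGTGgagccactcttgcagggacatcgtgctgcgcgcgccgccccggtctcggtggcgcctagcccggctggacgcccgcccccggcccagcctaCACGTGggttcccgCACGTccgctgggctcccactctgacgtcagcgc
Pfkp: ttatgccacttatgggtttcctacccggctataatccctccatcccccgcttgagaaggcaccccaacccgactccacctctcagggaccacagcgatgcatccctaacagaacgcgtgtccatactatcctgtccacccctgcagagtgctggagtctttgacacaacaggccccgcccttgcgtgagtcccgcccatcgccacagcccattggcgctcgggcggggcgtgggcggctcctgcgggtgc

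In windows of 300 bases (250 before and 50 after the start site), ACGTG stood in 6 of the 17 windows of the 10 members, or 35.3%, against 19.6% of all 32851 windows. These 6 windows belonged to Hk1, Hk2, Aldoa, Pgk1 and Ldha, and windows of the same gene can overlap. The Ldha window held 5 matches on the 2 strands, of which 4 come from 2 palindromic CACGTG sites, a motif found in 7.15% of all windows. No match of ACGTG stood in the windows of Eno1, Pfkp, Pfkl, Gpi1 or Pdk1. The related letters GCGTG, which are more common, stood in 32.4% of all windows and 4 times in that of Pfkp. GCGTG also stood in windows of Hk1, Pfkl, Eno1, Ldha and Pdk1, and in none of Hk2, Gpi1, Aldoa or Pgk1.

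**Figure D1:**
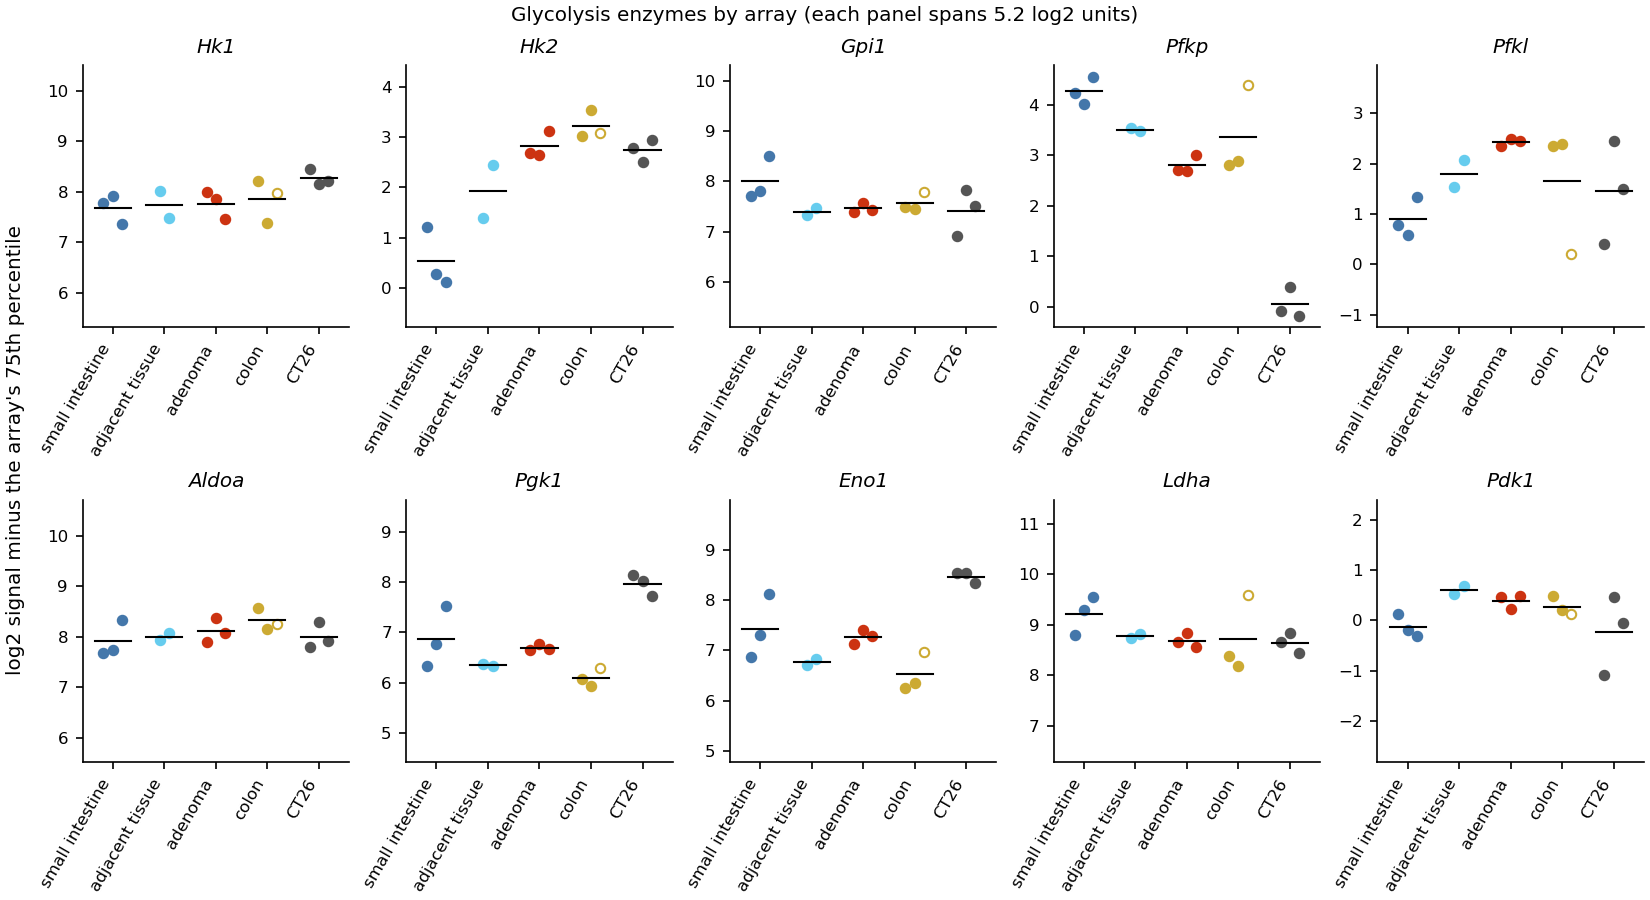
Each panel plots 1 enzyme, with the log2 signal minus the 75th percentile of the array on the vertical axis and the 5 groups on the horizontal axis; points are arrays, bars are group means and the open circle is colon replicate 3. Hk2 lies at 0.12 to 1.22 in the small intestine and at 2.65 to 3.12 in adenomas, Pfkp drops to -0.18 to 0.39 in CT26, and Pgk1 and Eno1 are highest in CT26.

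Adenomas were compared with healthy small intestine to ask what differs in early tumors. The hexokinase Hk2 and the liver-type phosphofructokinase Pfkl rose in adenomas, and the platelet-type phosphofructokinase Pfkp fell, whereas the enzymes of the later steps were not called. These were 3 of the 10 members, 2 higher and 1 lower, beside 11.3% of all 22094 gene names tested called higher and 11.1% called lower. The median log2 fold change was -0.04 over the members and -0.15 over all names.

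Hk2 is the inducible hexokinase that binds the outer mitochondrial membrane. Its levels were 1.22, 0.28 and 0.12 in the 3 small intestine arrays and 2.69, 2.65 and 3.12 in the 3 adenomas. The adjacent pieces read 1.39 and 2.45, between the other groups, and no 2 of these 3 groups overlapped. Relative to small intestine, Hk2 in adenomas was raised 4.85-fold (log2 fold change 2.28, SE 0.32, limma adjusted p = 0.00144). The change was 2.23 within slide 1 and 2.37 within slide 2, and 2.28 with the slide as a block (adjusted p = 0.00373).

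Both phosphofructokinase isoforms catalyse the committed step, the phosphorylation of fructose 6-phosphate, and they moved in opposite directions. Pfkp levels were 4.23, 4.02 and 4.56 in small intestine, 3.55 and 3.48 in adjacent tissue, and 2.72, 2.69 and 3.01 in adenomas. Pfkl levels were 0.78, 0.59 and 1.34 in small intestine, 1.53 and 2.07 in adjacent tissue, and 2.34, 2.49 and 2.44 in adenomas. For either gene the 3 groups did not overlap and adjacent tissue, with 2 arrays, lay in the middle. The share of all names with this pattern was not counted, here or for Hk2. In adenomas against small intestine Pfkp fell by 1.46 on the log2 scale (SE 0.20, limma adjusted p = 0.00133) and Pfkl rose by 1.52, or 2.87-fold (SE 0.22, adjusted p = 0.00184). Within slides 1 and 2 the Pfkp change was -1.53 and -1.33 and the Pfkl change was 1.33 and 1.9; with the slide as a block the adjusted p-values were 0.00282 and 0.00478.

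The Pfkp and Pfkl calls were near the thresholds under other settings. With the authors' normalized table and with quantile normalization, the Pfkp change was -1.13 and -1.17, short of the fold threshold. The Pfkl call was lost without adenoma replicate 2 (log2 fold change 1.49, limma adjusted p = 0.0117), without adenoma replicate 3 (1.51, adjusted p = 0.0101), and with all 5 groups in 1 fit (1.52, adjusted p = 0.0572). The second Pfkp probe, A_52_P572045, fell by 1.02 (adjusted p = 0.00396), the same direction with a smaller size.

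Hk1, the hexokinase found in most tissues, had 3 probes that did not give the same pattern. The brightest probe, A_55_P2037398, read 7.78, 7.92 and 7.36 in small intestine and 7.99, 7.85 and 7.45 in adenomas, which overlapped (log2 fold change 0.08, SE 0.23, limma adjusted p = 0.787). Probe A_55_P2027999 read 2.34, 1.99 and 2.06 in small intestine, 2.72 and 3.04 in adjacent tissue, and 3.82, 4.09 and 3.99 in adenomas. On this probe adenomas stood apart from both other groups and were 3.56-fold above small intestine (log2 fold change 1.83, SE 0.17, adjusted p = 0.000334). Probe A_55_P2118843 rose by 0.84 (SE 0.18, adjusted p = 0.00776), under the fold threshold. The files place these probes on the minus strand of mouse build mm9 at chr10:61731230-61731288, chr10:61731856-61731915 and chr10:61732717-61732776; the last 2 are annotated to a RefSeq transcript, the brightest to another sequence record, and which exon or UTR each lies in was not analysed here. Hk1 is therefore called or not called according to the probe read.

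**Figure D2:**
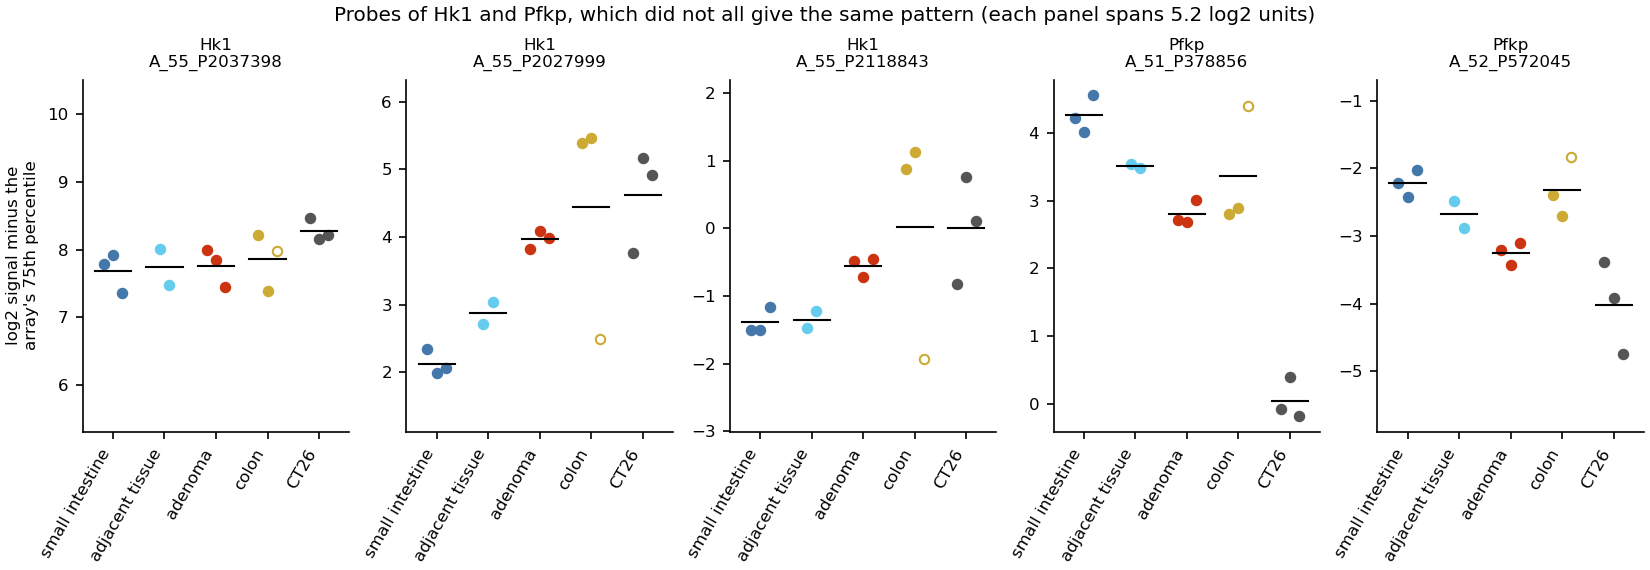
Each panel plots 1 probe of Hk1 or Pfkp, with the log2 signal minus the 75th percentile of the array on the vertical axis and the 5 groups on the horizontal axis; points are arrays, bars are group means and the open circle is colon replicate 3. The brightest Hk1 probe overlaps between small intestine and adenomas, the other 2 Hk1 probes do not, and both Pfkp probes lie lower in adenomas and CT26 than in small intestine.

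The other members were not called between adenomas and small intestine. Gpi1, which interconverts glucose and fructose 6-phosphates, read 7.72, 7.81 and 8.50 in small intestine and 7.40, 7.57 and 7.43 in adenomas (log2 fold change -0.54, limma adjusted p = 0.0901). Ldha, the main lactate dehydrogenase subunit of glycolytic tissues, read 8.79, 9.30 and 9.55 in small intestine and 8.65, 8.84 and 8.55 in adenomas (-0.53, adjusted p = 0.0873). Pdk1, a kinase that inhibits pyruvate dehydrogenase, read 0.12, -0.19 and -0.30 in small intestine and 0.46, 0.23 and 0.48 in adenomas, without overlap, at 0.51 (adjusted p = 0.0484). The 95% intervals of these 3 differences ran from -1.10 to 0.01, -1.07 to 0.01 and 0.09 to 0.94, so each left out a change of 1.2 in size in either direction. For Ldha this held at the brightest probe only. Ldha probe A_55_P2141876 was at -0.81 (95% interval -1.58 to -0.04) and A_55_P2141878 at -0.90 (-1.68 to -0.12). Neither was called, but both intervals included a fall of 1.2.

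Aldoa, Pgk1 and Eno1 overlapped between adenomas and small intestine. Aldoa, the aldolase of muscle and most proliferating cells, read 7.67, 7.74 and 8.34 against 7.89, 8.38 and 8.07 in adenomas (log2 fold change 0.19, 95% interval -0.37 to 0.76). Pgk1, the first ATP-yielding enzyme, read 6.33, 6.77 and 7.53 against 6.64, 6.76 and 6.67 (-0.18, interval -0.89 to 0.53). Eno1, the ubiquitous enolase, read 6.87, 7.31 and 8.12 against 7.13, 7.41 and 7.29 (-0.16, interval -0.91 to 0.59). In all 3, and also in Gpi1, Ldha, Pfkp and Pfkl, small intestine replicate 3 was the highest array of its group.

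Cell type markers moved between the same groups. All 10 enterocyte markers were lower in adenomas, 6 of 10 called, and the log2 of their summed signal was 11.08 to 12.33 in small intestine and 8.64 to 9.37 in adenomas, all 10 staying above background. The proliferation list had 8 of 10 genes called higher (log2 sum 5.61 to 6.51 against 7.35 to 7.49), the erythroid list all 4 tested (2.12 to 3.60 against 6.83 to 7.15) and the fibroblast list 3 of 6. The 8 smooth muscle markers had 2 called lower, with sums of 7.14 to 9.0 in small intestine and 6.53 to 6.84 in adenomas. Of 7 neutrophil and monocyte markers, 3 were called higher and 1 lower, with mean Il1b at -3.86 in small intestine and 0.65 in adenomas; 3 of 8 epithelial markers were called lower and 1 higher, and 2 of 4 lymphocyte markers tested were called lower. Their part in the changes of Hk2, Pfkl and Pfkp was not tested.

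Neighbouring pathways were read from lists of genes. Of 14 other glycolysis enzymes, Aldoc, the brain-type aldolase, was called higher and 4 were called lower, among them Eno3, the muscle enolase, Hkdc1, a hexokinase-like gene, and Pklr, the liver and red cell pyruvate kinase. Aldoc read 3.05, 2.08 and 2.38 in small intestine and 4.98, 5.25 and 4.91 in adenomas, a 5.83-fold rise (limma adjusted p = 0.000505), whereas Hkdc1 fell by 2.07 on the log2 scale (adjusted p = 0.000905). Pkm2, the name the array gives the pyruvate kinase of proliferating cells, was not called (0.33, adjusted p = 0.46). The glucose synthesis list had 5 of 7 genes lower and none higher, among them Pck1 (-2.58), Fbp1 (-2.84) and G6pc (-3.22), and all 3 genes of fructose breakdown were lower: Khk by 3.04, Dak by 2.52 and the transporter Slc2a5 by 2.14. The median log2 fold change was -2.32 in the glucose synthesis list and -2.52 in the fructose list, beside -0.15 over all names.

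Pfkfb4, which makes the phosphofructokinase activator fructose 2,6-bisphosphate and degrades it, was the 1 of 5 regulators called, lower by 2.46 on the log2 scale. Of 15 genes of lactate and pyruvate handling, 2 were called, both lower: Pdk2 (-2.19), a pyruvate dehydrogenase kinase like Pdk1, and Brp44l (-1.33), the array name of a subunit of the mitochondrial pyruvate carrier. Of 10 hypoxia-induced genes outside glycolysis, Car9 (1.89) and Ddit4 (2.02) were called higher and none lower. The other 8 included Vegfa at -0.03 and Egln3 at -1.54 (adjusted p = 0.0104), and the median of the list was -0.03.

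**Figure D3:**
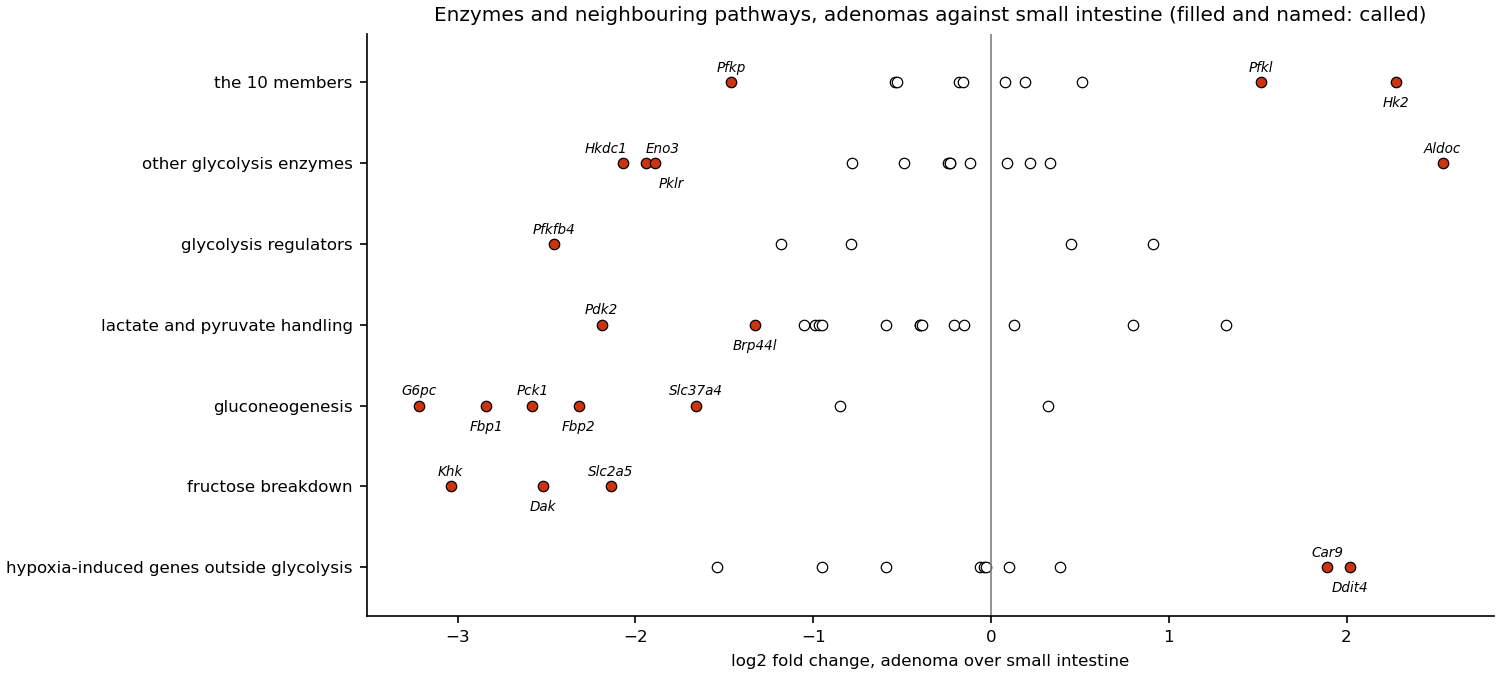
Each point is 1 gene, placed by its log2 fold change of adenomas over small intestine on the horizontal axis and by its gene list on the vertical axis; filled and named points were called, open points were not, and 1 called gene of the other glycolysis enzymes is not drawn. The 10 members hold 2 called genes to the right and 1 to the left, while the 5 called genes of gluconeogenesis and the 3 of fructose breakdown all lie to the left.

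The adenomas were also compared with the adjacent tissue of the same mouse, where no member was called in limma. The background was 2.40% of 22199 names called higher and 1.78% called lower; 57.4% of all calls were higher, and 80% when arrays were scaled to their median. An unadjusted p under 0.05 was reached by 4 of 10 members and by 38.3% of all names, so the members' share was near the background. Among the brightest probes Pfkp had the lowest adjusted p, at -0.71 (SE 0.17, adjusted p = 0.0391), and Hk2 was at 0.90 (95% interval 0.04 to 1.75, adjusted p = 0.119), both without overlap between the groups. The Hk2 value ran from 0.37 to 1.43 when single arrays were left out, and was 1.52 within slide 1 and 0.20 within slide 2. The other Hk1 probes, A_55_P2027999 and A_55_P2118843, were at 1.08 (adjusted p = 0.0155) and 0.79 (0.0313). Eno1 was at 0.50 and Pfkl at 0.62, again without overlap. Pgk1 (0.34) and Pdk1 (-0.22) did not overlap either, and the share of all names without overlap was not counted. Ldha read 8.74 and 8.82 in adjacent tissue, within the range of the adenomas (95% interval -0.50 to 0.30).

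Adjacent tissue against healthy small intestine gave no called member in limma, with a background of 0.00924% of 21641 names higher and 0% lower. An unadjusted p under 0.05 was reached by 4 of 10 members and by 30.6% of all names. Hk2 stood at 1.38 (95% interval 0.24 to 2.52, limma adjusted p = 0.119), Pfkl at 0.90 and Pfkp at -0.76, none overlapping. Gpi1 (-0.61), Eno1 (-0.66) and Pdk1 (0.73) did not overlap either, and the share of all names without overlap was not counted. Hk2 differed between the slides, at 0.72 within slide 1 and 2.18 within slide 2, where each group has 1 array and no test was possible. With 2 adjacent arrays, 1.62% of all names had an adjusted p of at most 0.05. In the other pathways too, no gene of the lists was called in this comparison.

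**Figure D4:**
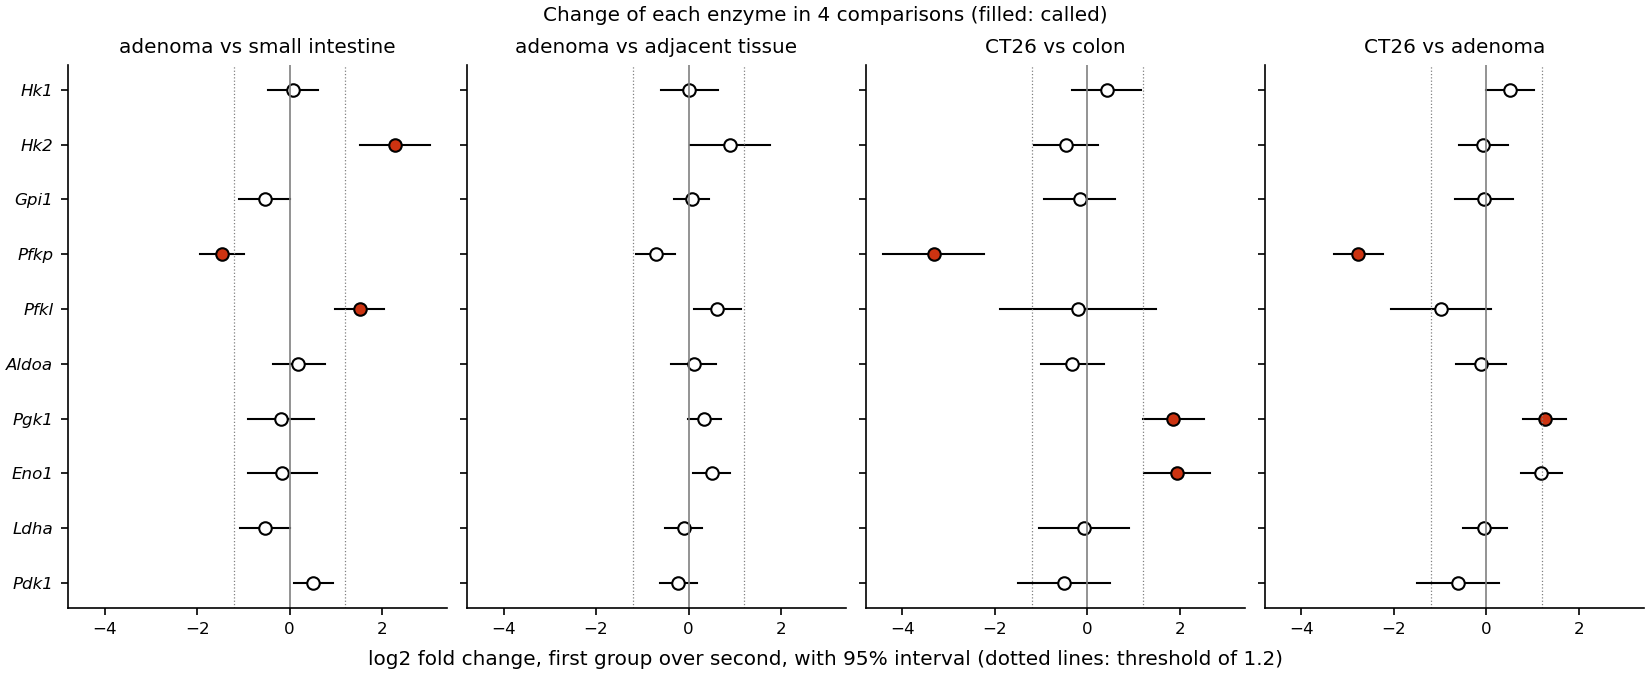
Each panel plots the log2 fold change (horizontal axis) of the 10 enzymes (vertical axis) in 1 comparison, with its 95% interval; filled points were called and dotted lines mark a change of 1.2. Hk2 and Pfkl lie to the right and Pfkp to the left in adenomas against small intestine, while Pgk1 and Eno1 lie to the right and Pfkp far to the left in CT26 against colon.

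Colon was compared with small intestine as the second healthy tissue, and no member was called in limma when all 3 colon arrays were used, beside 0.00484% of 20645 names called higher and 0.00484% lower. Hk2 read 3.02, 3.53 and 3.09 in colon, all above the highest small intestine array, and was 6.38-fold higher (log2 fold change 2.67, adjusted p = 0.045); it was the 1 member with an unadjusted p under 0.05, which 23.9% of all names reached. Without colon replicate 3 the change of Hk2 was 2.73 and was called (adjusted p = 0.0076), beside 3.34% of 22601 names called higher and 3.90% lower.

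For several other members colon replicate 3 lay with the small intestine. Pfkp read 2.81 and 2.89 in colon replicates 1 and 2 and 4.40 in replicate 3, and Pfkl read 2.34, 2.39 and 0.21. Ldha followed the Pfkp pattern, at 8.37, 8.18 and 9.59, and Hk1 probe A_55_P2027999 the Pfkl pattern, at 5.39, 5.46 and 2.49. Without replicate 3 the colon change from small intestine was -1.42 for Pfkp (limma adjusted p = 0.0135), 1.46 for Pfkl (0.0191) and -0.94 for Ldha (0.0653), none called, whereas Hk1 probe A_55_P2027999 was called at 3.29 (0.000825). The values of Pgk1 were 6.07, 5.93 and 6.29 in colon, all under the lowest small intestine array, and were not called either with replicate 3 (-0.78) or without it (-0.88).

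CT26 was compared with colon as a model of advanced tumors. Pgk1 and Eno1, the enzymes of the ATP-yielding and the water-removing steps of lower glycolysis, rose, and Pfkp fell by far the most of the 10 members. These 3 members stood beside 21.0% of 21692 names called higher and 16.2% called lower. The median log2 fold change was -0.18 over the members and 0.32 over all names. Scaling arrays to their median moved the latter to 0.98 and the share of higher calls among all calls from 56.4% to 73.3%, and for CT26 against adenoma from 52.3% to 66.9%.

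Pgk1 read 8.14, 8.02 and 7.72 in CT26 and 6.07, 5.93 and 6.29 in colon. Eno1 read 8.53, 8.53 and 8.34 in CT26 and 6.26, 6.36 and 6.97 in colon, so neither gene overlapped. Pgk1 was 3.64-fold higher (log2 fold change 1.86, SE 0.28, limma adjusted p = 0.00113) and Eno1 3.83-fold higher (1.94, SE 0.30, adjusted p = 0.0014). Relative to the shift of all names, the changes were 1.54 for Pgk1 and 1.62 for Eno1; these relative changes were 1.07 and 1.35 with the authors' normalized table and 0.97 and 1.15 with quantile normalization, where both genes were still called. Without colon replicate 3 they were 1.96 (adjusted p = 0.00109) and 2.16 (0.000525), and within slides 1 and 2 they were 2.0 and 1.84 for Pgk1 and 2.07 and 1.92 for Eno1.

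Pfkp read -0.08, 0.39 and -0.18 in CT26, under every tissue array, of which the lowest was 2.69. It fell by 3.32 on the log2 scale against colon (SE 0.47, limma adjusted p = 0.000836). Without colon replicate 3, whose Pfkp level was that of small intestine, it fell by 2.81 (adjusted p = 0.000254). The second Pfkp probe fell by 1.70 (adjusted p = 0.0118), or by 1.46 without colon replicate 3 (0.0241), and was not called. Pfkl did not show a difference that could be placed, since CT26 itself read 0.40, 2.44 and 1.5 (95% interval -1.89 to 1.48; without colon replicate 3, -2.25 to 0.41).

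Without colon replicate 3, the background of CT26 against colon was 20.1% of 23184 names higher and 19.4% lower, and the count of called members stayed at 3. Members with no call in either version included Hk2, which read 2.79, 2.50 and 2.95 in CT26, and Ldha, which read 8.65, 8.84 and 8.44. For Ldha the change was -0.07 with all colon arrays (95% interval -1.05 to 0.90) and 0.37 without replicate 3, so its direction depended on that array. Gpi1 read 6.91, 7.82 and 7.52, Aldoa 7.79, 8.30 and 7.91, and Pdk1 -1.09, 0.47 and -0.05 in CT26. Of these 3 genes and Pfkl, CT26 replicate 1 was the lowest CT26 array for each.

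In the other lists CT26 had 3 of 12 further glycolysis enzymes tested called higher than colon: Eno2, the neuronal enolase (6.37-fold), Pgam1, which follows Pgk1 in the pathway (3.02-fold), and Pkm2 (2.48-fold). Of the 4 called lower, Aldoc stood at -4.72, and Hkdc1 was not well above background on any CT26 array. Ldhb, the lactate dehydrogenase subunit that favours pyruvate, was also not well above background there and was at least 191-fold lower, a bound set by the dimmest measured signal of each array, while Ldha was not called. Of the 10 hypoxia-induced genes, Ddit4 (1.69) and Vegfa (2.64) were called higher and Adm, Ankrd37, Car9 and Egln3 lower. Pck2, the mitochondrial form of the enzyme that makes phosphoenolpyruvate, was called higher at 3.40, from colon arrays of which 2 of 3 were above background. With colon replicate 3 left out, Eno2 (2.51, limma adjusted p = 0.0116) and Ddit4 (1.51, 0.0148) were no longer called, whereas Pgam1 (1.75), Pkm2 (1.40), Vegfa (2.55), Pck2 (2.73), Aldoc, Hkdc1, Ldhb, Adm, Ankrd37, Car9 and Egln3 were.

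Markers of other cells differed at the same time. All 8 epithelial and all 8 smooth muscle markers were called lower in CT26 than in colon, the log2 of the summed signal being 5.19 to 5.82 against 10.59 to 11.58 for the epithelial list and -0.34 to 0.43 against 9.03 to 9.45 for the smooth muscle list. The proliferation list had 8 of 10 genes called higher, and 9 of 10 without colon replicate 3, which left the counts of the epithelial and smooth muscle lists at 8. Of 6 fibroblast markers, Col1a2 was called higher and 2 were called lower. The log2 sums of that list were 7.75 to 8.29 in CT26 and 5.13 to 6.26 in colon. Of 5 neutrophil and monocyte markers tested, 1 was called higher and 3 lower, and 5 of 6 lymphocyte markers were called lower. These 3 lists kept their counts without colon replicate 3. The part of all these markers in the changes of Pgk1, Eno1 and Pfkp was not tested.

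CT26 was set directly against adenomas as the 2 tumor materials of the series. Pgk1 was called higher (log2 fold change 1.27, 2.41-fold, SE 0.20, limma adjusted p = 0.000897) and Pfkp lower (-2.77, SE 0.23, adjusted p = 2.46e-05). Beside them, 21.9% of 22829 names were called higher and 20.0% lower. The second Pfkp probe, A_52_P572045, was at -0.77 (limma adjusted p = 0.0862), overlapped between the groups and was not called. Eno1 stayed just under the fold threshold, at 1.19 (adjusted p = 0.000963), with no overlap between 8.34 to 8.53 in CT26 and 7.13 to 7.41 in adenomas. With the authors' normalized table the Pgk1 change was 0.69 and with quantile normalization 0.67, and the call was lost; without CT26 replicate 1 it was 1.17, while without CT26 replicate 2 Pfkl was called lower as well (-1.48, limma adjusted p = 0.00978). Relative to the shift of all names, 0.34, Pgk1 was at 0.93 and Eno1 at 0.86. Hk2 overlapped between CT26 and adenomas (-0.07, 95% interval -0.60 to 0.46), as did Ldha (-0.04, -0.51 to 0.44), Aldoa (-0.11, -0.65 to 0.43) and Gpi1 (-0.05, -0.67 to 0.57).

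The change of CT26 from colon was tested against the change of adenomas from small intestine in 1 contrast over the 4 groups. It differed for 3 members: Hk2 at -2.75 (SE 0.44, limma adjusted p = 0.000437), Pgk1 at 2.05 (SE 0.41, adjusted p = 0.00192) and Eno1 at 2.10 (SE 0.44, adjusted p = 0.00276), beside 15.5% of 23445 names higher and 15.3% lower (50.3% of calls higher, and 69.6% with scaling to the median). Hk2 rose by 2.28 in adenomas and stood at -0.47 in CT26, from normal tissues that themselves differed, 0.12 to 1.22 in small intestine and 3.02 to 3.53 in colon. Pgk1 and Eno1 stood at -0.18 and -0.16 in adenomas and rose in CT26. Without colon replicate 3 the same 3 members were called, at -2.81, 2.14 and 2.32, and Pfkp (-1.35, adjusted p = 0.0071) and Pfkl (-2.44, limma adjusted p = 0.00875) were called in addition, as was Hk1 probe A_55_P2027999 (-2.64, adjusted p = 0.00113), beside 18.5% of 24161 names higher and 17.3% lower. With quantile normalization Pgk1 and Eno1 lost the call, at 1.16 (adjusted p = 0.0266) and 1.35 (0.0184), and with the authors' normalized table Pgk1 did, at 1.22 (0.0208). Both settings added a call for Pfkp, at -2.26 (limma adjusted p = 0.00262) and -2.12 (0.00187). These Pfkp calls were read from the brightest probe. The second Pfkp probe stood at -0.68 in this contrast (limma adjusted p = 0.277). Without colon replicate 3 it was at -0.44 (0.45), and neither value was called.

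The order of group means differed between the members. Hk2 ran from colon through adenoma and CT26 to adjacent tissue and small intestine. Of neighbours in this order, only colon with adenoma and adenoma with CT26 overlapped. Pfkp ran from small intestine through adjacent tissue, colon and adenoma to CT26, over a range of 4.23 in group means. Colon overlapped adjacent tissue and adenoma, its neighbours in this order. Through replicate 3 (4.40) colon also overlapped small intestine, whose lowest array was at 4.02. Pgk1 and Eno1 shared the order CT26, small intestine, adenoma, adjacent tissue, colon, and ranged over 1.86 and 1.94. Aldoa, Ldha, Hk1 (brightest probe), Gpi1 and Pdk1 had ranges of 0.41 to 0.83. Leaving out colon replicate 3, the order was the same for Hk2, Pfkp, Pgk1 and Eno1, the Pfkp levels of colon and adjacent tissue no longer overlapped, and colon became the lowest group for Ldha, whose range grew to 0.94.

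Over the 14 arrays, the genes nearest to the 3 members of widest range were found by the root mean square difference of their centred log2 values among 10060 named genes well above background on all arrays. For Pfkp the 3 nearest included Tprn (0.287) and Tob1 (0.293), where the median gene was at 1.80. For Hk2 they were Fpgs (0.506), Blnk (0.528) and Arhgef10l (0.538), beside a median of 1.21. For Eno1 they were Gm5537 (0.160), Ube2j1 (0.232) and Otud3 (0.236), beside 0.81. The arrays share tissue and slide, so these likenesses are descriptions.

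The remaining single probes lie at chr6:82675056-82675115 (Hk2), chr10:77450926-77450985 (Pfkl), chr7:133938816-133938875 (Aldoa) and chr2:71739688-71739747 (Pdk1) of mm9. Some probes cannot be tied to 1 locus. The files place the Pgk1 probe A_65_P03442 at chr3:57906830-57906894 of mm9, on another chromosome than the X-linked gene of the promoter shown above, so signal from processed copies of Pgk1 cannot be told apart from that of the gene. Eno1 also has a near-identical copy in the mouse genome, and its single probe, at chr4:149622928-149622987, may read both. Pgk1 and Eno1 values are uncertain to that extent. The brightest Pfkp probe spans chr13:6581718-6583872 on the minus strand, longer than an array probe; what lies between its ends was not analysed here.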

How the data were processed

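Total RNA of 14 samples was labelled with Cy3 and hybridised to SurePrint G3 Mouse 8x60K arrays on 2 slides. The authors deposited scanner output (Feature Extraction 10.7.3.1) with a background-subtracted intensity for each spot. The authors also deposited normalized log2 values; the method is not given in the sources used here, every array has the same distribution, and their columns of fold changes and p-values for group pairs were left out. Columns of that table with flags and detection words (28) were not used. Intensities were averaged over spots of a probe, outlier spots were left out, and log2 values were reduced by the 75th percentile of the array. The main test was limma 3.58.1 in R 4.3.3, on the arrays of the groups compared, over those probes that exceeded background on all arrays of any group compared. Each p-value is two-sided and Benjamini-Hochberg adjusted over all those probes; no transcript counts underlie the signals, so precision is limited by the number of arrays. The fits were tested on simulated data. Genes named are the 10 members, called genes of the pathway lists and the 3 nearest genes of the 3 members of widest range; uncalled Pkm2, Vegfa and Egln3 were named after their values were seen. Some items that this rule selects are not reported here. The members and lists were chosen with earlier results of these data known. Same-numbered replicates were not treated as pairs: their deviations correlated at -0.125 to 0.291 and in no comparison with 3 pairs did every pair exceed 0.1. Sample titles number the adjacent arrays differently from the replicate labels. Adenoma and adjacent pieces paired by title were therefore not checked, either here or in the replicate block. No 2 arrays held identical values. Alternatives were other scalings, filters, probes, blocks for slide or replicate number, thresholds and leaving out each array. Promoter windows are RefSeq's on GRCm38.p6, whereas probe positions are those of the files on mm9.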

Additional observations from a re-analysis of the deposited data

Results flagged for a closer look

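For 3 enzymes the change in CT26 against colon differed from the change in adenomas against small intestine by the test of that difference. Beside them, 15.5% of 23445 names were called higher and 15.3% lower, and the median over all names was 0.43. For Hk2 the difference was -2.75 on the log2 scale, from -0.47 in CT26 and 2.28 in adenomas (limma adjusted p = 0.000437). For Pgk1 it was 2.05, from 1.86 and -0.18 (adjusted p = 0.00192), and for Eno1 it was 2.10, from 1.94 and -0.16 (adjusted p = 0.00276). Leaving out colon replicate 3, the differences were -2.81, 2.14 and 2.32, all still called, beside 18.5% of 24161 names higher and 17.3% lower. With quantile normalization Pgk1 (1.16, limma adjusted p = 0.0266) and Eno1 (1.35, 0.0184) lost the call. With the authors' normalized table Pgk1 lost it (1.22, limma adjusted p = 0.0208). The change from small intestine to colon itself was 2.67 for Hk2, -0.78 for Pgk1 and -0.90 for Eno1, none called with all arrays. Without colon replicate 3 that of Hk2 was 2.73 and was called (limma adjusted p = 0.0076). Pgk1 (-0.88) and Eno1 (-1.12) were again not called. All 8 epithelial and all 8 smooth muscle markers were called lower in CT26 than in colon. Fibroblast markers went both ways, with 1 of 6 called higher and 2 lower. The part of these markers was not tested.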

How the results depend on the processing

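Of the 7 counts of called members, those of adenoma against small intestine (3), adjacent tissue against small intestine (0) and CT26 against colon (3) stayed within 1.5 times the reported count under each alternative run. At an adjusted p of 0.05 with no fold minimum, 1 member passed in adenoma against adjacent tissue (20.2% of all names) and 1 in colon against small intestine (0.538%), where 1 also passed with all 5 groups in 1 fit. CT26 against adenoma gave 1 with the authors' table and 1 with quantile normalization. Leaving out each array in turn gave 0 to 1 for colon against small intestine, 1 to 3 for CT26 against adenoma and 3 to 5 for the difference of the changes; colon replicate 3 left out gave the 1 (Hk2) and the 5, and CT26 replicate 1 left out gave the 1 of CT26 against adenoma. With the replicate block the counts were unchanged, at 3, 0, 0, 0, 3, 2 and 3 in the order of the report, and no call changed; the Hk1 change from small intestine to adjacent tissue was -0.10. Each reversed direction concerned a change that was not called, with adjusted p-values of 0.13 or more where a test was possible. With scaling to the array median, which raised the median of all names in CT26 against colon from 0.32 to 0.98, these stood for CT26 against colon at 0.19 (Hk2), 0.50 (Gpi1), 0.46 (Pfkl), 0.33 (Aldoa), 0.59 (Ldha) and 0.16 (Pdk1), against adenoma at 0.42 (Hk2), 0.44 (Gpi1), 0.38 (Aldoa) and 0.45 (Ldha), and elsewhere at 0.14 (Ldha) and 0.03 (Pdk1) for adenoma against adjacent tissue, -0.10 (Hk1) and -0.08 (Aldoa) for adjacent tissue against small intestine, and 0.06 (Aldoa) for the difference of the changes. With the authors' table the values were 0.11 (Pgk1) and 0.19 (Eno1) for adenoma against small intestine, 0.25 (Ldha) against adjacent tissue, -0.01 (Hk1) for CT26 against adenoma, and -0.37 (Hk1), -0.33 (Gpi1) and -0.02 (Ldha) for the difference. Quantile normalization gave 0.16, 0.15, 0.14, -0.05, -0.39, -0.45 and -0.17 for the same changes, and -0.02 for Hk1 in CT26 against colon. Background correction by normexp gave 0.02 (Gpi1) and 0.01 (Ldha) against colon and 0.01 (Gpi1) against adenoma. The mean of all probes gave 0.14 for Ldha in CT26 against colon and -0.72 for Hk1 in the difference. The other Hk1 probes, added after seeing the data, gave -1.66 and -0.85 there and -0.02 in CT26 against colon. The slide block gave 0.11 for Ldha in CT26 against colon, and -0.01 for Hk1 in both adenoma against adjacent tissue and colon against small intestine. Within slide 1 the values were -0.03 (Aldoa, adenoma against small intestine), -0.29 (Hk1, against adjacent tissue), -0.07 (Aldoa, adjacent tissue against small intestine), -0.19 (Hk1, colon against small intestine) and 0.36 (Ldha, CT26 against colon); within slide 2 they were 0.18 (Gpi1), 0.16 (Pdk1) and 1.17 (Pfkl) in CT26 against colon. In slide 2, where the other pairs have 1 array a group and no test, the sign also turned for adenoma against small intestine at -0.07 (Hk1) and 0.09 (Eno1), against adjacent tissue at 0.02 (Ldha), for adjacent tissue against small intestine at -0.44 (Hk1), and for CT26 against adenoma at 0.25 (Gpi1) and 0.24 (Pdk1). Leaving out each array gave ranges across 0 for Hk1 (-0.09 to 0.23), Pgk1 (-0.46 to 0.14) and Eno1 (-0.44 to 0.18) in adenoma against small intestine, Hk1 (-0.25 to 0.28) and Aldoa (-0.03 to 0.22) against adjacent tissue, Hk1 (-0.20 to 0.33) and Aldoa (-0.04 to 0.30) in adjacent tissue against small intestine, Hk1 (-0.01 to 0.41) in colon against small intestine, Gpi1 (-0.37 to 0.09), Pfkl (-0.92 to 0.32) and Ldha (-0.34 to 0.37) in CT26 against colon, and Hk2 (-0.18 to 0.08), Gpi1 (-0.25 to 0.20), Aldoa (-0.26 to 0.02) and Ldha (-0.14 to 0.06) in CT26 against adenoma. Where an array left out or a slide alone left a group with 1 array, that array was assumed to vary like the others. The causes of these differences were not tested.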
